A study of Mus musculus with 12 samples.

Results

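The genes described here are the enzymes of glycolysis, the kinases that switch its entry and exit, and the carriers that move glucose and lactate across the cell membrane. They were chosen by symbol alone: hexokinases Hk1 to Hk3, Gpi1, the phosphofructokinases, the Pfkfb enzymes, the aldolases, Tpi1, Gapdh, Pgk1, the phosphoglycerate mutases, the enolases, Pkm, the lactate dehydrogenases, the pyruvate dehydrogenase kinases and every numbered Slc2a and Slc16a gene. The count table held 55 such genes among 22317 symbols. Expression was measured by RNA-seq of poly(A) mRNA in 12 mouse libraries, 3 in each of 4 groups.

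All animals were wild-type male BALB/c mice, 8 weeks old, in which photothrombosis (PT), the closing of small vessels by lighting the dye Rose Bengal with a laser, was made in the skull or in the brain. The group SB2 is labelled as brain on day 2 after skull PT and the group SB4 as brain on day 4 after skull PT. The group BS2 is labelled as skull on day 2 after brain PT and the group BS6 as skull on day 6 after brain PT. The methods state that brain and skull were taken with the ischemic region and its surroundings. By the labels, though, each group here is the tissue in which PT was not made. Each library comes from a piece of tissue and averages over many cell types. Uninjured controls and the injured tissues themselves were not analysed here, and so each difference is between 2 injured conditions.

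Glycolysis splits glucose into pyruvate in a chain of enzymes that are, for most steps, encoded by several genes with different tissue preferences. Pyruvate then either enters the mitochondria through pyruvate dehydrogenase or is reduced to lactate, which leaves or enters cells with the monocarboxylate transporters of the Slc16a family. In the brain, neurons and astrocytes use different isoforms and are thought to exchange lactate, whereas osteoblasts and neutrophils are known for a strong flow of glucose to lactate.

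Marker genes went against the labels of 2 groups. The summed level of 9 neuron markers was 11350 to 12280 CPM (counts relative to library size after TMM scaling) in the libraries labelled SB4 and 10930 to 11290 in those labelled BS2, but 70.7 to 113 in those labelled SB2 and 73.4 to 141 in those labelled BS6. The 7 osteoblast and osteocyte markers that matched had the opposite order, with 3322 to 5294 CPM in SB2, 1194 to 2830 in BS6, 20.2 to 22.1 in SB4 and 20.3 to 25.2 in BS2. The libraries labelled SB2 thus held bone transcripts despite the label brain, and the libraries labelled BS2 held brain transcripts despite the label skull. The group names below are those of the labels, and in SB4 against SB2 as well as in BS6 against BS2 the day and the tissue content cannot be told apart. In such bulk samples, fewer cells of a type and less RNA per cell cannot be told apart either. Total counts per library were 14126082 to 18972654, at which 3 counts correspond to at most 0.212 CPM.

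The 4 upstream regions below are shown because they belong to the isoforms and carriers on which the results turn: both main lactate dehydrogenases, a hexokinase that was higher in the libraries with bone transcripts, and the lactate exporter Slc16a3. They were chosen after the values were seen, and nothing about the other genes follows from them. Each run is the 250 bases before the transcription start, 5′ to 3′ in the direction of the gene, from RefSeq on GRCm38.p6. Capitals mark ACGTG on either strand (CACGT where it lies on the other strand), a form of the core sequence that hypoxia-inducible factors are known to bind. The form GCGTG was not counted, here or in the shares below, and the printed Ldhb region holds it. The palindrome CACGTG counts on both strands.
Ldha, chr7:46845554-46845803, plus strand: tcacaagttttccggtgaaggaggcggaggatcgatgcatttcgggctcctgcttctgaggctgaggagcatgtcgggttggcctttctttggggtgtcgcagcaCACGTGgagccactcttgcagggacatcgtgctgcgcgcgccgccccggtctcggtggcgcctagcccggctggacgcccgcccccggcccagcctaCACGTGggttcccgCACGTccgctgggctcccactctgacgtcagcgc
Ldhb, chr6:142507958-142508207, minus strand: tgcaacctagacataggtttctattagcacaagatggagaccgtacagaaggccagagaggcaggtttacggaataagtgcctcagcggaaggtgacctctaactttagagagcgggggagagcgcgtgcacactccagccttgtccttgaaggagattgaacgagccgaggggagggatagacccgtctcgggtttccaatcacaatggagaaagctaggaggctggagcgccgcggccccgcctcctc
Hk2, chr6:82774455-82774704, minus strand: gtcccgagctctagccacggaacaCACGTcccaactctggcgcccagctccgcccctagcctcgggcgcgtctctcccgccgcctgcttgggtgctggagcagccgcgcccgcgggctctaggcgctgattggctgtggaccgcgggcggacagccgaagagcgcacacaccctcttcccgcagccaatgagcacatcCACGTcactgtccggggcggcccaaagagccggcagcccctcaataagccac
Slc16a3, chr11:120948817-120949066, plus strand: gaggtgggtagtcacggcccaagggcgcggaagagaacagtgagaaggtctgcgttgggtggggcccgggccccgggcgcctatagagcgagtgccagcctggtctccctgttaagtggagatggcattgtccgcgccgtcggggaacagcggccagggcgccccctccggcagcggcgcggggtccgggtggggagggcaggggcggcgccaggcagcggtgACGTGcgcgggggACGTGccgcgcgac

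The printed Ldha region held ACGTG 5 times on either strand, the Hk2 and Slc16a3 regions 2 times each, and the Ldhb region 0 times. A second RefSeq start of Ldha has its own region, chr7:46846832-46847081, which held it 0 times. A match is only a run of letters, and its absence says only that these letters are not in this window. RefSeq regions were matched for 47 of the 55 genes. ACGTG was found in 21 of their 66 regions (31.8%) and in 16.6% of 32851 regions of all genes. Regions of the same gene can overlap and share a match, as those of Aldoa do. The palindrome CACGTG was in 8 of the 66 regions and in 6.02% of the regions of all genes. Among genes with a region, it occurred in 5 of 18 that were higher in SB4 than in SB2, in 4 of 12 that were lower and in 8 of 16 that were not called. In BS6 against BS2 it occurred in 4 of 14 that were higher, 5 of 16 that were lower and 8 of 16 that were not called. Pfkm, Pfkfb2, Pgam1, Ldhd and Pdk2, all called as higher in SB4, hold it too. The regions of the others, Slc2a3 and Slc2a4 among them, were not analysed here.

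The first comparison, SB4 against SB2, asks what changed in the brain between day 2 and day 4 after skull PT, as the labels have it. Of 54 genes tested, 21 were higher and 13 lower in the libraries labelled SB4 (63.0% called). A call needed an adjusted p under 0.05 with edgeR's quasi-likelihood test and an absolute log2 fold change over 1. Over all 17293 genes tested, 56.4% were called, 27.8% as higher and 28.6% as lower, so that the share among the glycolysis genes was near this background. Their median log2 fold change was 0.22 against -0.01 over all genes.

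The second comparison, BS6 against BS2, asks the same of the skull between day 2 and day 6 after brain PT. Here 15 of 54 genes tested were higher and 18 lower in BS6 (61.1% called), against 55.5% of 17311 genes overall (29.0% higher, 26.5% lower). The median log2 fold change was -0.18 against 0.02 over all genes.

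The pair of comparisons shares no library, and the genes called in both moved in opposite directions. Of the 28 genes called in both, 12 were lower in SB4 and higher in BS6, 16 were higher in SB4 and lower in BS6, and 0 had the same direction. Among all genes of the count data, 8342 of 8355 called in both were opposite too. The contrast between both changes, fitted over the 12 libraries, called 41 of 54 genes, 18 higher and 23 lower, against 73.6% of all genes tested (37.8% higher, 35.8% lower).

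**Figure D1:**
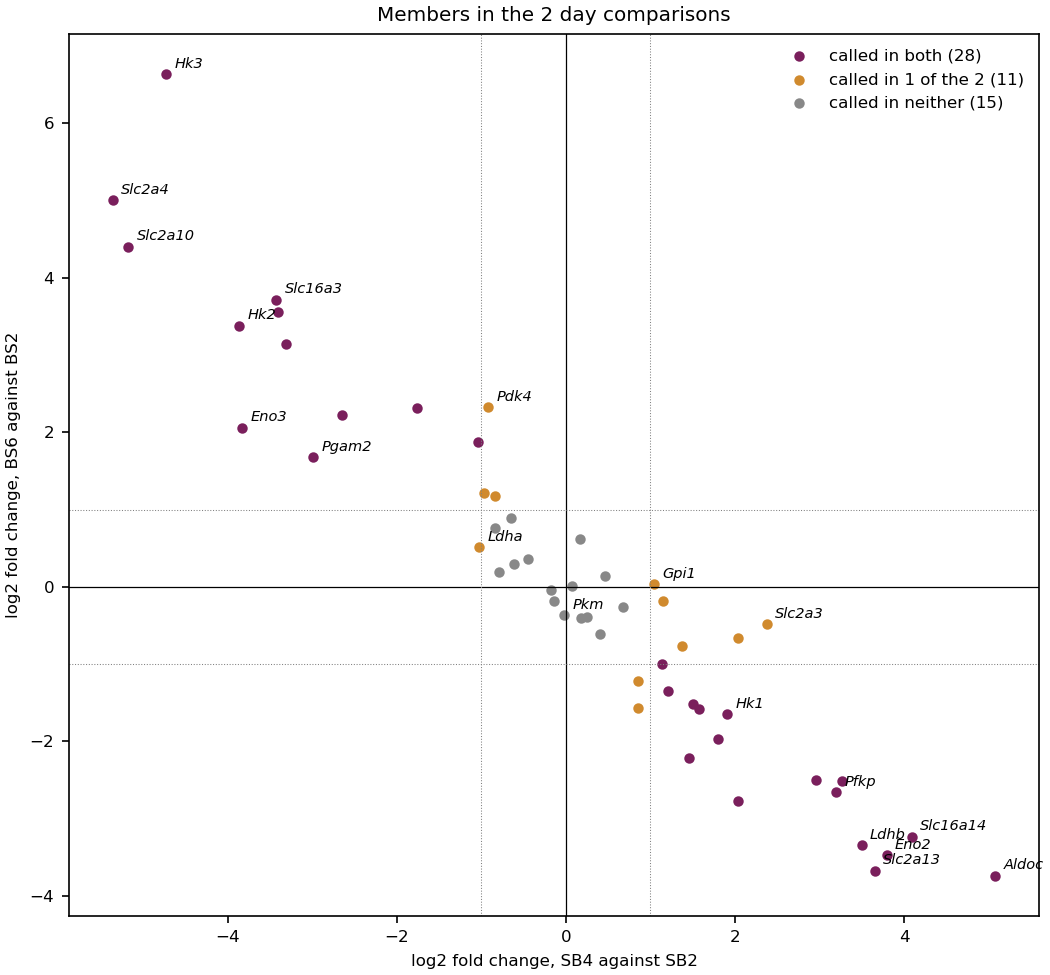
Each point is a gene, placed by its log2 fold change in SB4 against SB2 (horizontal) and in BS6 against BS2 (vertical), and coloured by whether it was called in both comparisons, in 1 or in neither. The 28 genes called in both lie in the upper left and lower right parts of the plot, and dotted lines mark a log2 fold change of 1 in either direction.

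When libraries were compared by their content instead of their labels, few differences remained. In BS6 against SB2, the groups with bone transcripts, 0 of 52 genes tested were called by edgeR, while 1.86% of all genes tested were called (1.11% higher, 0.741% lower). An unadjusted edgeR p under 0.05 was found for 13 of the 52 genes and for 4764 of all 16329 genes tested. DESeq2 called 4 genes higher (Hk3, Pdk4, Slc2a3 and Slc2a6) and 2 lower (Eno3 and Pgam2), and a fit over all 12 libraries called those 6 in the same directions. Of all genes tested, these fits called 6.57% and 7.05%. Leaving out BS6 replicate 2 lowered the edgeR log2 fold change of Hk3 from 2.20 to 0.64, that of Slc2a3 from 1.89 to 0.42 and that of Slc2a6 from 1.49 to 0.61. Eno3 and Pgam2 are muscle genes, and the summed muscle markers described further on were also highest in 2 libraries of SB2 (2630 and 3447 CPM, against at most 838 in BS6). In BS2 against SB4, the groups with brain transcripts, 0 of 53 were called by edgeR, with 9 at an unadjusted p under 0.05, and DESeq2 also called 0. The background of edgeR calls there was 0.147% (0.0614% higher, 0.086% lower), and 1933 of all 16278 genes tested had an unadjusted p under 0.05. Labelled tissue, injured site and day differ together in these pairs and cannot be told apart. With the labels SB2 and BS2 exchanged, each pair would instead hold the same tissue and injured site on different days. Whether these labels were exchanged was not tested.

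**Figure D2:**
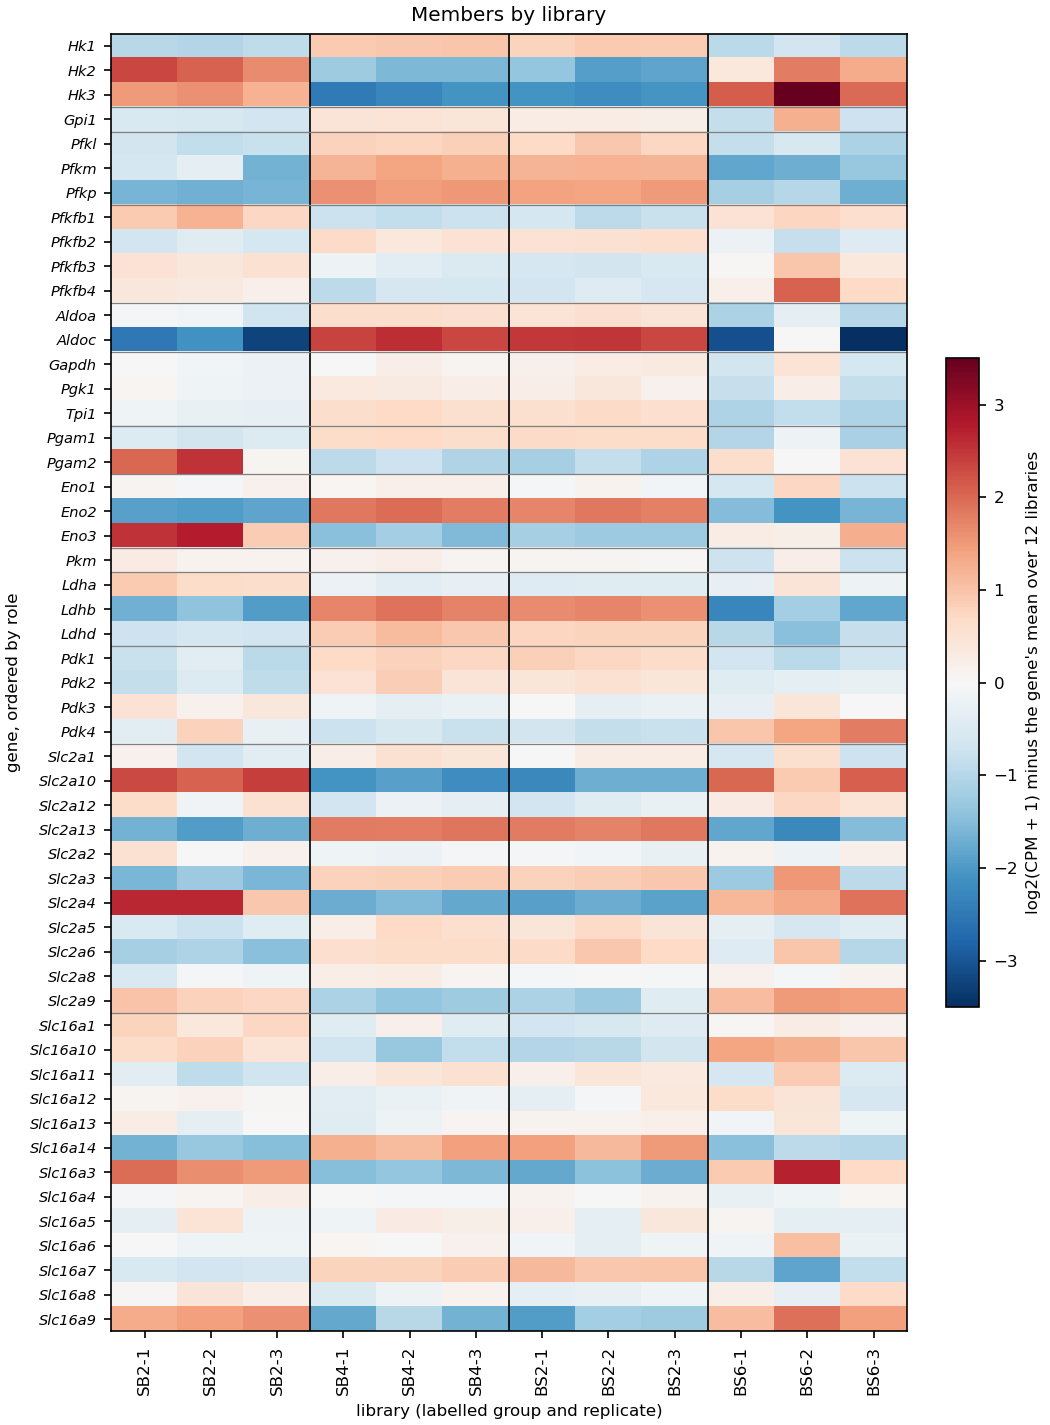
Rows are genes in order of their role, columns the 12 libraries, and the colour is log2(CPM + 1) minus the mean of the gene over all libraries. The columns labelled SB4 and BS2 look alike and differ from those labelled SB2 and BS6, and BS6-2 (the second library of BS6) stands apart in rows such as Hk3, Gpi1, Slc2a3 and Slc16a3.

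The step that traps glucose in the cell, its phosphorylation by hexokinase, was led by Hk1 in every group, beside amounts of Hk2 and Hk3 that differed between the groups. Hk1, the housekeeping enzyme that sits on mitochondria and prevails in the brain, had 410, 416 and 423 CPM in SB4 and 371, 408 and 399 in BS2. It had 111, 105 and 118 CPM in SB2 and 113, 137 and 115 in BS6. The groups did not overlap in either day comparison, and Hk1 was 3.76-fold higher in SB4 than in SB2 (log2 fold change 1.91 ± 0.07 (SE), edgeR adjusted p = 3.59e-10) and 3.14-fold lower in BS6 than in BS2 (-1.65 ± 0.12, adjusted p = 4.42e-05).

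Hk2, the isoform of muscle and of many proliferating cells, went the other way. It was 57.6, 47.8 and 35.5 CPM in SB2 and 14.1, 39.0 and 27.6 in BS6, but between 2.05 and 3.90 in all libraries labelled SB4 or BS2. Its log2 fold changes were -3.86 ± 0.21 and 3.38 ± 0.45. Hk3, a hexokinase of myeloid cells, was 24.6, 26.6 and 20.1 CPM in SB2 and 0.638 to 1.16 in SB4 and BS2. In BS6 it was 38.6 and 35.1 CPM in replicates 1 and 3 and 248 in replicate 2. Its log2 fold change of 6.64 ± 1.05 in BS6 against BS2 was 5.09 without that replicate.

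Within the family, per kilobase of transcript, Hk1 made up 99.2% ± 0.05 (SD, n = 3) of the transcripts of Hk1 to Hk3 in SB4 and 99.2% ± 0.19 in BS2. In SB2 the share was 65.9% ± 5.13 with 15.9% from Hk3, and in BS6 Hk1 had 68.1, 30.9 and 66.5% in the 3 replicates. Hk1 had the largest of these shares in every library except BS6 replicate 2, where Hk3 had 63.3%. These shares leave out Hkdc1, a further hexokinase gene that the symbol pattern does not take, which averaged 33.5 CPM in SB4 and 36.0 in BS2 against 0.516 in SB2 and 0.711 in BS6 (log2 fold changes 6.02 and -5.60, both called). All SB4 libraries lay above all SB2 libraries in the Hk1 share, with a two-sided exact permutation p of 0.1, which is the smallest that 3 against 3 libraries allow. This limit holds for each comparison of shares below.

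**Figure D3:**
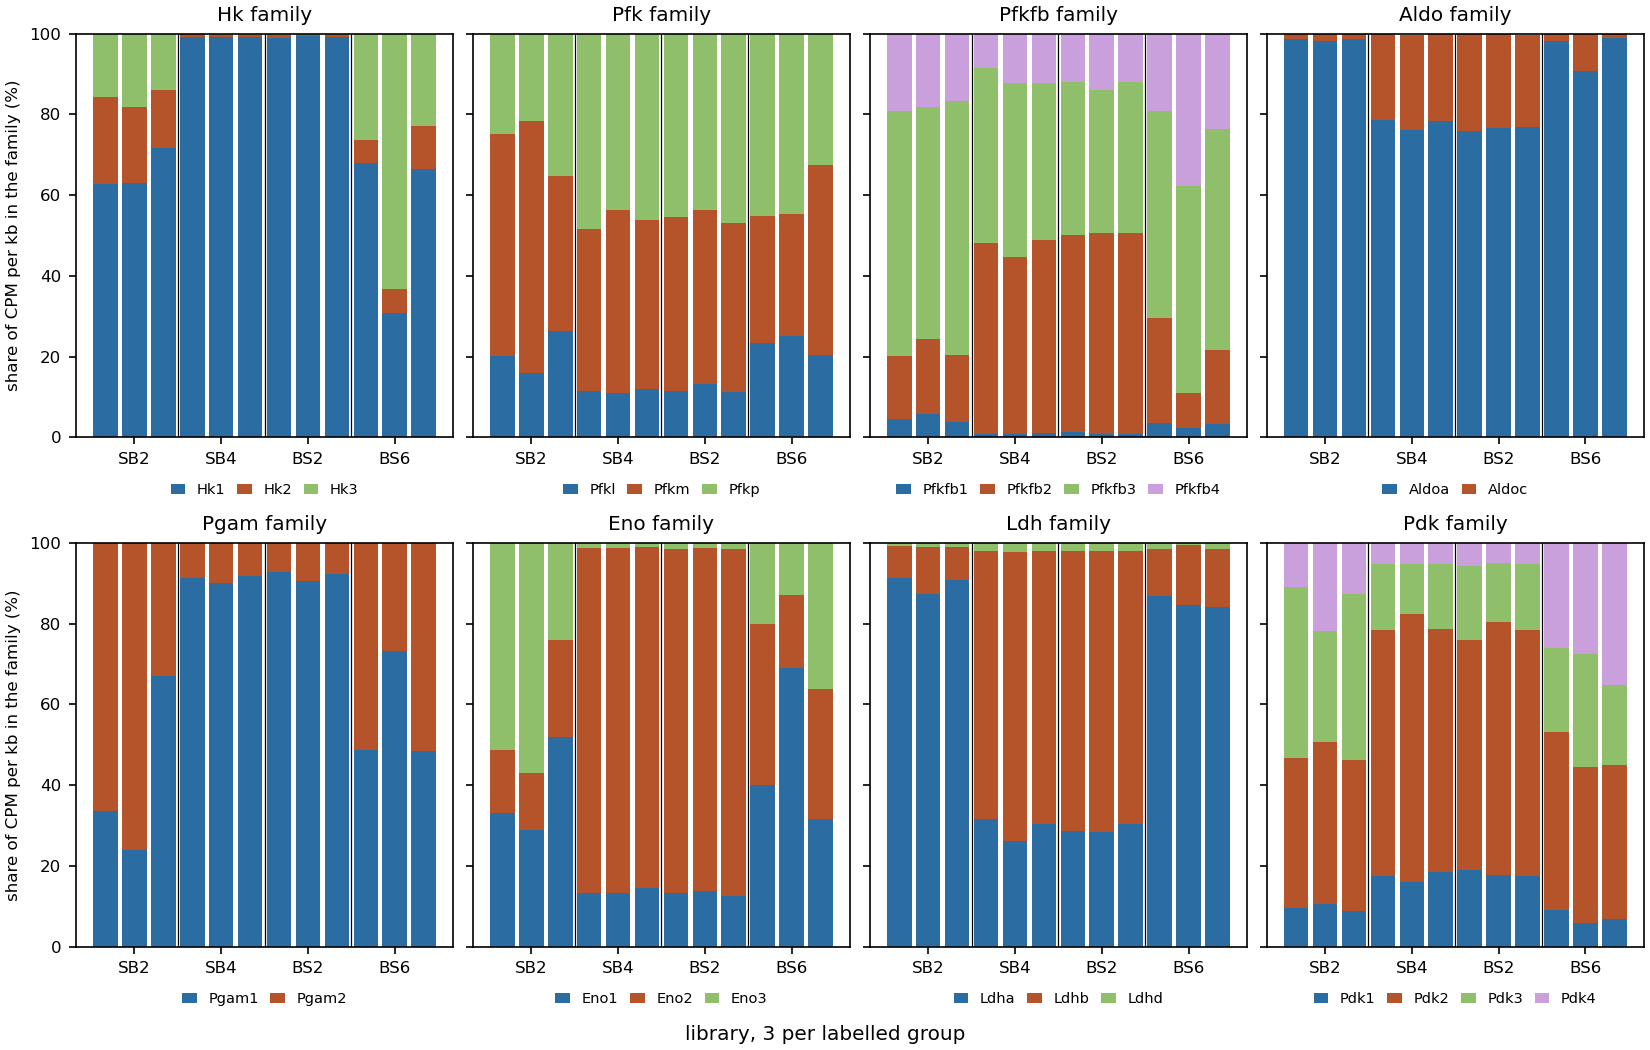
Stacked bars give, for each of 8 enzyme families, the share of the isoforms in the CPM per kilobase of their family, in 1 bar per library with 3 bars per group. Hk1, Eno2 and Ldhb take the larger part in SB4 and BS2, while Ldha takes 84.2 to 91.2% in SB2 and BS6.

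Gpi1, which turns glucose-6-phosphate into fructose-6-phosphate, was 439, 449 and 434 CPM in SB4 and 222, 219 and 204 in SB2 (log2 fold change 1.04 ± 0.07, adjusted p = 4.74e-08). In BS2 it was 388, 386 and 376 CPM, and in BS6 183, 764 and 196 CPM. The second library of BS6 thus lay above and the others below every library of BS2. The log2 fold change in BS6 against BS2 was 0.04 ± 0.57 with all libraries and -0.98 without that replicate (adjusted p = 2.75e-06), short of the limit for a call.

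Phosphofructokinase commits sugar to glycolysis, and all 3 of its genes were higher in SB4 than in SB2 and lower in BS6 than in BS2. The platelet-type gene Pfkp had the largest change, from 52.5, 50.1 and 51.8 CPM in SB2 to 494, 448 and 468 in SB4 (9.16-fold, log2 fold change 3.20 ± 0.07, adjusted p = 1.02e-11). It was 425 to 456 CPM in BS2 and 49.4 to 80.5 in BS6 (-2.66 ± 0.20). The liver-type gene Pfkl was 51.2 to 59.3 CPM in SB2, 158 to 168 in SB4, 152 to 181 in BS2 and 43.0 to 62.7 in BS6, with log2 fold changes of 1.58 and -1.59. The muscle-type gene Pfkm was 437 to 498 CPM in SB4, 436 to 451 in BS2 and 53.9 to 76.4 in BS6, but spread from 60.4 to 154 CPM among the libraries labelled SB2 (log2 fold changes 2.04 ± 0.37 and -2.78 ± 0.16).

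The Pfkfb enzymes make and remove fructose-2,6-bisphosphate, the strongest activator of phosphofructokinase, and here the direction differed between genes. Pfkfb2 was 34.1 to 42.0 CPM in SB4 and 36.9 to 39.2 in BS2, above the 16.1 to 18.9 in SB2 and the 14.3 to 22.6 in BS6 (log2 fold changes 1.14 and -1.0, the latter at the limit for a call, -0.84 without BS6 replicate 2 and -0.99 without BS2 replicate 3). Most of its transcript is shared with Gm29427, a gene model that overlaps it on the same strand, so its counts are uncertain. Pfkfb3, the isoform with the highest kinase over phosphatase activity, was 67.5 to 73.7 CPM in SB2 and 35.1 to 45.0 in SB4 (log2 fold change -0.84 ± 0.09, adjusted p = 6.94e-06, not called for its size). In BS6 it was 52.4, 100 and 65.7 CPM against 31.9 to 34.6 in BS2 (1.17 ± 0.24), and 0.87 without replicate 2.

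Pfkfb4 was 33.1 to 38.9 CPM in SB2 and 14.8 to 18.9 in SB4 (-1.04 ± 0.11, and -0.99 without SB2 replicate 1 or -0.93 without SB4 replicate 1). It was 33.2, 125 and 47.7 CPM in BS6 and 17.9 to 21.1 in BS2 (1.88 ± 0.50, adjusted p = 0.0133). Its value was 1.10 without BS6 replicate 2, and its adjusted p was 0.0505 without BS2 replicate 1. Pfkfb1, the isoform of liver and muscle, was low everywhere, with 4.15 to 6.13 CPM in SB2, 3.39 to 4.17 in BS6 and at most 1.00 in the other groups (log2 fold changes -2.65 and 2.22). Per kilobase, Pfkfb2 had 46.4% ± 2.23 of the family in SB4 and 17.0% ± 1.59 in SB2, whereas Pfkfb3 had 41.8% ± 2.49 and 60.3% ± 2.85.

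Aldolase cleaves the sugar into trioses. Aldoc, the brain isoform known from astrocytes and Purkinje cells, gave the largest rise of all members in SB4 against SB2. It was 16.2, 21.3 and 9.22 CPM in SB2 and 499, 577 and 491 in SB4 (33.8-fold, log2 fold change 5.08 ± 0.31, adjusted p = 2.33e-05). It was 536, 548 and 491 CPM in BS2 and 10.4, 96.8 and 6.43 in BS6 (-3.74 ± 1.07, adjusted p = 0.0177), where replicate 2 was again the highest, and the value without it was -5.93.

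Aldoa, the ubiquitous isoform, remained the main one in every library. It was 649, 638 and 414 CPM in SB2 and 1003 to 1034 in SB4 (0.85 ± 0.16, not called for its size), and 919 to 1004 in BS2 against 314, 542 and 336 in BS6 (-1.22 ± 0.24, adjusted p = 0.00306). Aldoc had 22.1% ± 1.45 of the aldolase transcripts per kilobase in SB4 and 23.4% ± 0.60 in BS2, and 1.47% ± 0.31 in SB2. In BS6 its share was 1.80, 9.02 and 1.05% in replicates 1 to 3, so that replicate 2 stood apart.

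The next 3 enzymes are each encoded by a single main gene. Tpi1, which interconverts the trioses, was 266 to 288 CPM in SB2 and 479 to 520 in SB4 (0.86 ± 0.07), and 476 to 511 in BS2 against 153, 177 and 152 in BS6 (-1.57 ± 0.12, adjusted p = 4.19e-05). Between the groups with bone transcripts its log2 fold change was -0.76 ± 0.11 (BS6 against SB2, edgeR adjusted p = 0.0311), and it was the only gene of the 52 with an adjusted p under 0.05 there.

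Pgk1, which makes the first ATP of the pathway, was 58.5 to 70.9 CPM in SB2, 80.9 to 86.5 in SB4, 76.1 to 90.7 in BS2 and 37.8 to 80.8 in BS6, and was called in neither day comparison. Gapdh, often used as a reference gene, was listed at 15.0 to 17.5 CPM in SB2, 17.7 to 20.9 in SB4, 19.8 to 21.9 in BS2 and 10.9 to 24.6 in BS6, far below Tpi1 and Pgk1.

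Gapdh shares most of its sequence with other genes. Of the 50-base windows along its transcript, 90.4% also occur in transcripts of other genes in GENCODE M21, among them 213 pseudogenes. The table lists 42 near copies of Gapdh, each holding at least 10% of its windows, and together these had 322 to 409 CPM in SB2, 591 to 663 in SB4, 564 to 607 in BS2 and 185 to 484 in BS6. The counting program and its handling of reads with several matches are not given in the sources used here.

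Gapdh and its near copies summed to 389 ± 46.4 CPM in SB2, 649 ± 37.2 in SB4, 612 ± 22.4 in BS2 and 306 ± 176 in BS6. With the sums in place of the single genes, an alternative chosen after seeing the data, the log2 fold change of Gapdh in SB4 against SB2 was 0.74 (edgeR adjusted p = 1.94e-05) in place of 0.25 (adjusted p = 0.0535), and in BS6 against BS2 it was -0.96 (adjusted p = 0.06) in place of -0.39. Neither reached the size of a call. Eno1 had 72.2% of its windows in other transcripts, and Eno1b with 1 other copy took 136 to 155 CPM beside its own 93.4 to 107 in SB2. For Pkm, Pgk1, Pgam1, Ldhb and Gpi1 the near copies added at most a few CPM, and no call changed.

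**Figure D4:**
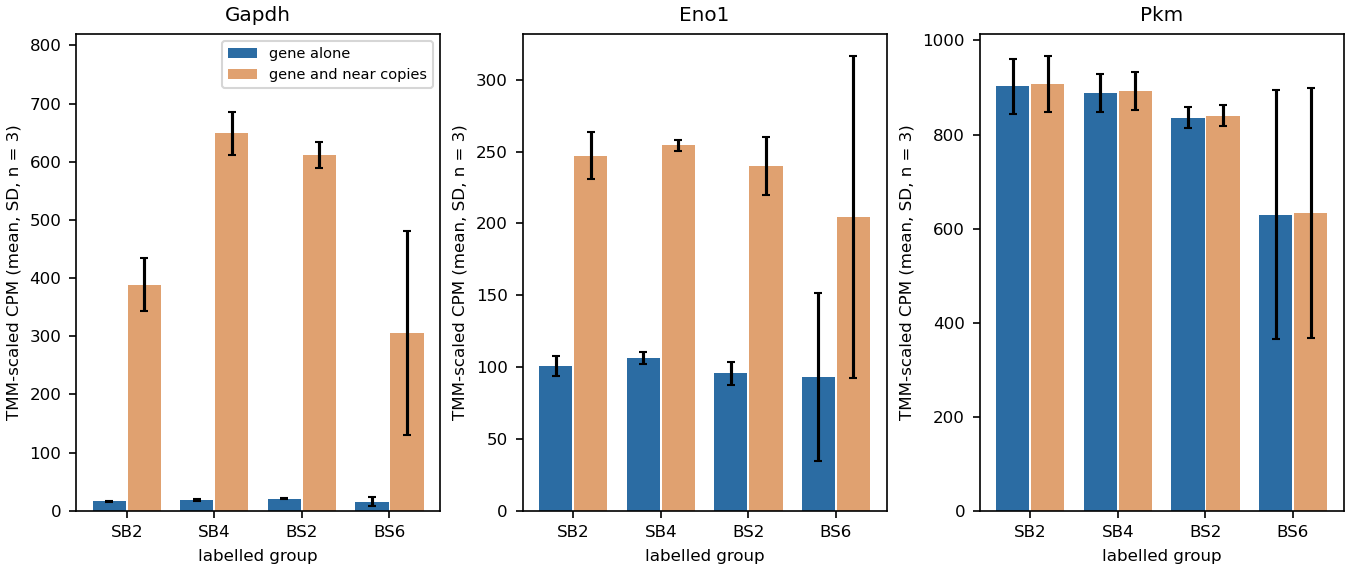
Bars give the mean CPM of Gapdh, Eno1 and Pkm by labelled group, alone and summed with their near copies, with the SD over 3 libraries as error bars. For Gapdh the sum is 389 CPM in SB2 and 649 in SB4 while the gene alone has 16.2 and 19.2, and for Pkm both bars are nearly equal.

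Phosphoglycerate mutase is built from Pgam1 and Pgam2. Pgam1, the form of brain and most tissues, was 35.1 to 39.2 CPM in SB2, 85.2 to 89.8 in SB4, 86.7 to 87.8 in BS2 and 26.7, 48.5 and 24.5 in BS6 (log2 fold changes 1.21 ± 0.07 and -1.35 ± 0.27). Pgam2, the muscle form, was 36.7, 52.7 and 9.10 CPM in SB2 and 3.56 to 4.73 in SB4 (-2.99 ± 0.77, adjusted p = 0.0191). That call was lost when SB2 replicate 1 or any 1 library of SB4 was left out (adjusted p up to 0.0714). In BS6 Pgam2 was 13.3, 8.40 and 12.3 CPM against 3.19 to 4.29 in BS2 (1.68 ± 0.24, adjusted p = 0.000744).

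Enolase makes phosphoenolpyruvate, and its 3 genes differed in direction. Eno2, the neuronal enolase, was 65.8, 62.9 and 68.5 CPM in SB2 and 897, 970 and 863 in SB4 (13.9-fold, log2 fold change 3.79 ± 0.08, adjusted p = 6.34e-12). It was 808, 890 and 849 CPM in BS2 and 86.4, 57.3 and 79.3 in BS6 (-3.48 ± 0.19, adjusted p = 1.33e-05). Eno3, the muscle enolase, was 114, 132 and 35.3 CPM in SB2, 5.79 to 7.67 in SB4, 7.17 to 7.84 in BS2 and 22.7, 21.6 and 46.3 in BS6 (-3.83 ± 0.65 and 2.06 ± 0.32).

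Eno1, the enolase of most tissues, was 93.4 to 107 CPM in SB2, 102 to 109 in SB4, 89.9 to 105 in BS2 and 56.5 to 160 in BS6, and was not called. Per kilobase Eno2 made up 85.1% ± 0.68 of enolase transcripts in SB4 and 85.3% ± 0.63 in BS2, but 17.9% ± 5.46 in SB2 and 30.0% ± 11.2 in BS6. These shares count the Eno1 symbol without its copies.

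Pkm, the pyruvate kinase that closes the pathway, stayed at a like level in 3 groups. It was 969, 869 and 869 CPM in SB2, 882, 931 and 852 in SB4, and 853, 843 and 810 in BS2. In BS6 it was 481, 935 and 473 CPM, so that replicate 2 alone lay within the range of the other groups. The log2 fold changes were -0.02 ± 0.08 (adjusted p = 0.836) and -0.37 ± 0.29 (adjusted p = 0.287). Pklr had no match in the table.

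At the branch to lactate the balance of isoforms turned over. Ldha, whose subunit favours the formation of lactate from pyruvate, was 610, 501 and 495 CPM in SB2, 277, 246 and 265 in SB4, 234, 237 and 241 in BS2, and 262, 442 and 286 in BS6. It was 2.03-fold lower in SB4 than in SB2 (log2 fold change -1.02 ± 0.10, adjusted p = 1.31e-06), close to the limit for a call, and -0.92 without SB2 replicate 1 or -0.95 without SB4 replicate 2. In BS6 against BS2 the log2 fold change was 0.52 ± 0.21 (adjusted p = 0.0643).

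Ldhb, whose subunit prevails where lactate is oxidised, was 38.5, 47.5 and 31.8 CPM in SB2 and 419, 480 and 425 in SB4 (11.3-fold, log2 fold change 3.5 ± 0.14, adjusted p = 8.62e-09). It was 404, 419 and 386 CPM in BS2 and 25.1, 55.2 and 35.3 in BS6 (-3.35 ± 0.31, adjusted p = 0.000113). Every library with brain transcripts lay far above every library with bone transcripts. Per kilobase Ldha had 89.9% ± 2.08 of the family in SB2 and 85.3% ± 1.49 in BS6, against 29.4% ± 2.74 in SB4 and 29.2% ± 1.06 in BS2. Ldhd, which acts on D-lactate, was 6.49 to 7.13 CPM in SB2, 22.3 to 26.0 in SB4, 20 to 20.3 in BS2 and 3.5 to 6.11 in BS6 (1.80 and -1.98). Exons of Znrf1 on the opposite strand overlap much of Ldhd, and since the use of strand in counting is not known, its counts are uncertain. Exons of other genes also overlap smaller parts of Gpi1, Pfkp, Pkm and Slc16a6.

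The pyruvate dehydrogenase kinases, which hold pyruvate back from the mitochondria, were split. Pdk1 was 14.3 to 21.4 CPM in SB2 and 47.3 to 50.8 in SB4 (1.51 ± 0.13), and 45.2 to 51.7 in BS2 against 14.2 to 17.6 in BS6 (-1.52 ± 0.13). Pdk2 was 26.2 to 35.2 CPM in SB2, 68.5 to 90.5 in SB4, 66.5 to 72.9 in BS2 and 36.7 to 41.6 in BS6 (1.38 ± 0.14 and -0.77 ± 0.10, the latter under the size of a call).

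Pdk4, the isoform induced by fasting and fatty acids, was highest in BS6. Its 33.5, 44.3 and 59.2 CPM there lay above the 8.77 to 10.2 in BS2 (5.0-fold, log2 fold change 2.32 ± 0.23, adjusted p = 0.000137). In SB2 it was 12.5, 29.8 and 13.7 CPM and in SB4 9.25 to 10.8 (-0.92 ± 0.36, adjusted p = 0.0514), and it would have been called as lower there without SB2 replicate 1 (-1.15) or replicate 3 (-1.10). In BS6 against SB2 the groups did not overlap, and its log2 fold change was 1.31 ± 0.39 (edgeR adjusted p = 0.094, DESeq2 adjusted p = 0.0106). Pdk3 was 16 to 29.2 CPM over all 12 libraries and was not called.

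Of 10 Slc2a genes tested, 4 were higher and 3 lower in SB4 than in SB2 (70.0% called, against 56.4% of all genes), and 4 were higher and 2 lower in BS6 than in BS2 (60.0%, against 55.5%), so that both shares were near the background. Slc2a13, a proton-coupled myo-inositol carrier of the brain, was 15.5 to 19.4 CPM in SB2 and 220 to 231 in SB4 (12.6-fold, log2 fold change 3.66 ± 0.09). It was 212 to 227 CPM in BS2 and 12.3 to 21.3 in BS6 (-3.68 ± 0.21). Slc2a1 (GLUT1), the carrier of the blood-brain barrier, was 31.0 to 55.2 CPM in SB2, 58.5 to 72.6 in SB4, 49.1 to 59.3 in BS2 and 29.6 to 73.1 in BS6 and was called in neither comparison.

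Slc2a4 (GLUT4), the insulin-dependent carrier of muscle and fat, was 30.2, 30.5 and 8.61 CPM in SB2 and 10.2, 11.5 and 17.7 in BS6. It was 0.446 to 0.707 CPM in SB4 and 0.354 to 0.512 in BS2, with log2 fold changes of -5.36 ± 0.74 (adjusted p = 0.0012) and 5.01 ± 0.33 (adjusted p = 2.81e-05). Slc2a3 (GLUT3), the neuronal carrier that white blood cells also use, was 29.3, 37.2 and 29.2 CPM in SB2 and 161 to 170 in SB4 (2.38 ± 0.09). In BS6 it was 36.8, 264 and 48.0 CPM against 159 to 176 in BS2. Its log2 fold change there was -0.48 ± 0.74 (adjusted p = 0.576) with all libraries and -1.94 without replicate 2.

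Slc2a10 was 35.5 to 45.7 CPM in SB2 and 15.6 to 36.0 in BS6 against at most 1.67 in the other libraries. Slc2a9, a urate carrier, was 5.13 to 9.42 CPM in SB2 and BS6 and at most 1.74 in SB4 and BS2. Slc2a6 was 22.6 to 28.8 CPM in SB4 and BS2, 4.64 to 6.33 in SB2 and 10.4, 29.7 and 6.75 in BS6. Slc2a5, the fructose carrier, did not exceed 1.74 CPM, and Slc2a2, the carrier of liver and beta cells, did not exceed 0.854 CPM and was not tested.

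Among the 14 Slc16a genes, 3 were higher and 3 lower in SB4 than in SB2 (42.9% called, against 56.4% of all genes), and 3 were higher and 2 lower in BS6 than in BS2 (35.7%, against 55.5%). Slc16a3 (MCT4), the exporter of lactate from glycolytic cells, was 60.7, 48.1 and 43.9 CPM in SB2 and 28.6, 102 and 24.7 in BS6. It was 4.29 to 5.22 CPM in SB4 and 3.54 to 4.87 in BS2, with log2 fold changes of -3.43 ± 0.15 (adjusted p = 1.29e-09) and 3.72 ± 0.64 (adjusted p = 0.00197, and 2.75 without replicate 2). Slc16a7 (MCT2), the high-affinity carrier of neurons, was 72.1 to 78.3 CPM in SB4 and 80.4 to 93.1 in BS2 against 25.6 to 28.6 in SB2 and 10.9 to 22.4 in BS6 (1.45 and -2.21).

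Slc16a1 (MCT1), the most widespread carrier, was 97.0, 72.1 and 93.2 CPM in SB2, 41.4, 63.0 and 41.5 in SB4, 34.5 to 40.7 in BS2 and 57.1 to 66.7 in BS6. Its log2 fold changes of -0.84 ± 0.20 and 0.76 ± 0.11 had adjusted p-values of 0.00673 and 0.000874 but stayed under the size of a call, which the first passed without SB4 replicate 2 (-1.04). Slc16a14, an orphan carrier, was 8.43 to 11.2 CPM in SB4 and BS2 and 0.399 to 1.33 in SB2 and BS6 (4.09 ± 0.25 and -3.24 ± 0.32). Slc16a9 and Slc16a10, carriers of other solutes than lactate, had the order of Slc16a3, with log2 fold changes of -3.40 and -1.77 in SB4 against SB2. Among the others, Slc16a11 was called as higher in SB4, and Slc16a4, Slc16a5, Slc16a6, Slc16a8, Slc16a12 and Slc16a13 were called in neither comparison.

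The spread between libraries of a group differed between the groups. Among genes with at least 5 CPM, the highest library exceeded the lowest by more than 2-fold for 0 of 38 genes in SB4, 0 of 39 in BS2, 6 of 47 in SB2 (12.8%, against 2.36% of all genes) and 19 of 47 in BS6 (40.4%, against 17.8% of all genes). Replicate 2 was the highest library for 15 of these 19 genes in BS6, and replicate 3 was the lowest for 5 of the 6 in SB2.

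In SB2, 4 of those 6 genes were Eno3, Pgam2, Slc2a4 and Pfkm, each known for muscle. The summed level of 9 skeletal muscle markers was 2630, 3447 and 410 CPM in the 3 libraries labelled SB2, 108, 155 and 838 in BS6, 15.7 to 17.3 in SB4 and 14.9 to 16.1 in BS2. The muscle creatine kinase Ckm was 168, 205 and 22.3 CPM in SB2 and 8.74, 6.64 and 39.3 in BS6, and at most 0.489 in SB4 and BS2. Their part in the levels of these 4 genes was not tested. Replicate 3, with the fewest muscle transcripts, was the lowest of the libraries labelled SB2 in Eno3 (35.3 CPM), Pgam2 (9.10), Slc2a4 (8.61) and Pfkm (60.4).

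In BS6, replicate 2 held 23430 CPM of 5 neutrophil markers, against 1347 and 3237 in the other libraries of that group, 826 to 1476 in SB2 and at most 4.19 in SB4 and BS2. S100a8, a neutrophil protein, was 4480 CPM there and 178 and 469 in replicates 1 and 3. The same library was the highest of its group in Hk3, Gpi1, Slc2a3, Aldoc, Slc16a3 and Pfkfb4, and the lowest in matrix markers, with 42200 CPM against 138300 and 176600. Some brain genes were highest there too. The neuron markers summed to 141 CPM, against 73.4 and 77.6 in replicates 1 and 3, and 6 oligodendrocyte markers to 357, against 133 and 147. Of 7 astrocyte markers, 6 were highest there, such as the glutamate carrier Slc1a2 with 66.4 CPM against 25.5 and 8.85. The exception was Gja1, with 176 CPM against 448 and 661, which was also higher in SB2 (635 to 794) than in SB4 and BS2 (144 to 191). Because of Gja1 the sum of the list was lowest there, with 416 CPM against 556 and 752. The part of these other cell types in these levels was not tested. Without it, Hk3 and Slc16a3 were still called higher and Aldoc still lower in BS6 than in BS2, while Pfkfb2 and Pfkfb3 lost their calls for size. Slc2a3 (-1.94), Slc2a6 (-1.54) and Pgk1 (-1.08) were then called as lower in BS6 and Slc16a8 (1.22) as higher.

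**Figure D5:**
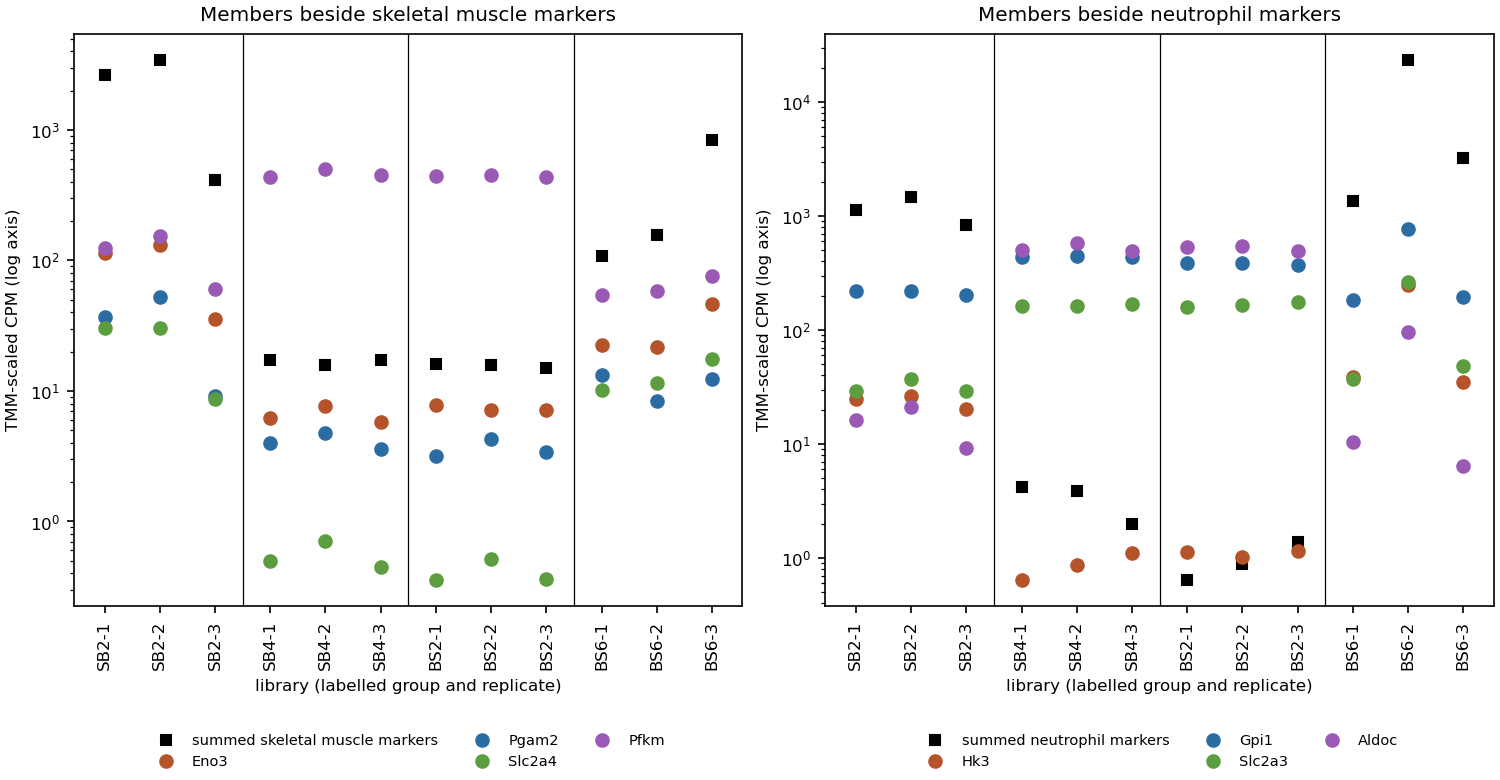
Coloured circles give the CPM of 4 genes per panel in each of the 12 libraries on a log axis, and black squares give the summed CPM of skeletal muscle markers (left) or neutrophil markers (right). Muscle markers are 2630 and 3447 CPM in SB2-1 and SB2-2 and 410 in SB2-3, and neutrophil markers are 23430 CPM in BS6-2, where Hk3, Gpi1, Slc2a3 and Aldoc are also the highest of BS6.

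Of 44 other genes of sugar metabolism, taken from a list, 42 were tested in each day comparison. In SB4 against SB2 10 were higher and 13 lower (54.8% called, against 56.4% of all genes), and in BS6 against BS2 15 were higher and 12 lower (64.3%, against 55.5%), shares near the background. The pentose phosphate enzymes G6pdx and Pgd, which make NADPH, were 57.7 and 138 CPM on average in SB2, 21.1 and 31.8 in SB4, and 20.5 and 32.3 in BS2, and both were called in each comparison. In BS6 G6pdx was 39.8, 365 and 55.6 CPM and Pgd 122, 514 and 140, so that replicate 2 set both means. The log2 fold change of G6pdx in BS6 against BS2 was 2.95, and 1.26 without BS6 replicate 2, and its call was lost without any single BS2 library (adjusted p = 0.0666 to 0.0718). That of Pgd was 3.04, and 2.05 without BS6 replicate 2. Mdh1 and Got1 of the malate-aspartate shuttle, which carries reducing power from glycolysis into mitochondria, were 603 and 310 CPM in SB4, 628 and 295 in BS2, 145 and 39.0 in SB2 and 104 and 35.5 in BS6, again called in each. Pdp1, the phosphatase that undoes the action of the Pdk enzymes, was 260 CPM in SB4 and 252 in BS2 against 22.7 in SB2 and 16 in BS6.

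In BS6 against SB2, 2 of the 42 genes were called, both as higher (4.76%, against 1.11% of all genes called as higher). These were Bpgm, the red-cell enzyme that makes 2,3-bisphosphoglycerate, with 31.1 CPM on average in SB2 and 99.5 in BS6, and Txnip, which lowers glucose uptake, with 198 and 508 CPM. The 5 erythroid markers that matched summed to 7677 to 12560 CPM in BS6 and 1263 to 4578 in SB2, and their part in this result was not tested. In BS2 against SB4 edgeR called 0 of 42 tested. Of these, 8 had an unadjusted p under 0.05, against 1933 of all 16278 genes tested.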

How the data were processed

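RNA-seq was made by the authors from poly(A) mRNA with the NEBNext Ultra II kit, sequenced in pairs, cleaned with fastp and mapped to mm10 with HISAT2 2.1.0, as the submitters' processing notes and the methods name it. The table deposited by the authors gives raw counts, unscaled, for each gene symbol. The counting program, annotation and use of strand are not given in the sources used here. The authors corrected batch effects with ComBat_seq ahead of their later analyses. Whether the deposited counts precede that correction is not given. Groups came from the labels, columns were matched by name, and 0 columns belonged to other samples. The methods speak of biological replicates, 3 per group.

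The tests were the robust quasi-likelihood tests of edgeR 4.0.16 (R 4.3.3) after TMM scaling, with low genes removed by filterByExpr (minimum 10) and Benjamini-Hochberg adjustment over all genes tested. Each fit held 2 groups, and the contrast between both day changes all 12 libraries. Calls required an absolute log2 fold change over 1 together with an adjusted p under 0.05. The SE is the log2 fold change over the square root of F. The script was tested on simulated data, where 79.4% of genes changed by a log2 of 1.5 were recovered in SB4 against SB2, 61.2% in BS6 against BS2 and 65.7% in BS6 against SB2. Only a small part of the genes was changed there. In the data, 56.4% were called in SB4 against SB2 and 55.5% in BS6 against BS2, so the recovered shares need not hold for these comparisons. Levels are CPM with TMM factors. CPM per kilobase uses the protein-coding transcript with the longest coding sequence in GENCODE M21 (GRCm38), in which 22022 of the 22317 symbols were found, and which also gave the windows of 50 bases. Aldoa has 2 entries there. The CPM to which 3 counts correspond covers counting error only, since reads carry no molecular identifiers, whereas SDs and SEs include the spread between libraries.

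Every gene matching the symbol pattern was a member. Full values were given, in each role, for the member with the highest mean CPM and for the called members with the largest and smallest log2 fold change in each day comparison (at least 5 CPM in the higher group), 29 in all. The others are given by range, values of a few members are not reported here, and those named outside this rule, such as Gapdh, Hk2, Slc2a3 and the pathway genes, were chosen after their values were seen. The members, the marker lists and the 44 pathway genes were chosen with earlier results of these data known. Alternatives were DESeq2 1.42.0, RLE factors, scaling by totals alone, testing without a filter or with 10 counts or more in every library, a single fit over 12 libraries, a replicate block and leaving out each library. Summing near copies and keeping only replicate 3 of SB2 were added after seeing the data.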

Additional observations from a re-analysis of the deposited data

Results flagged for a closer look

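The contrast (BS6 minus BS2) minus (SB4 minus SB2), tested with edgeR over the 12 libraries, marks genes whose change between days differed between the groups labelled skull and those labelled brain. It was called for 41 of the 54 genes tested (75.9%), near the 73.6% of all genes. It was also called for 27 of the 29 genes that the rule above chose, a count that follows largely from their choice by large changes between days. The libraries labelled SB2 and BS2 carry transcripts of the other tissue than their labels. The contrast thus sets the groups with bone transcripts (SB2 and BS6) against those with brain transcripts (BS2 and SB4). A day 2 group stands on each side, so that tissue content and the difference between day 6 and day 4 cannot be told apart in it.

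A lower contrast, with the gene lower in BS6 and higher in SB4, was found on the log2 scale for Hk1 (-3.55), Pfkl (-3.16), Pfkm (-4.80), Pfkp (-5.85), Pfkfb2 (-2.13), Aldoa (-2.07), Aldoc (-8.80), Tpi1 (-2.42), Pgam1 (-2.55), Eno2 (-7.26), Ldhb (-6.83), Ldhd (-3.77), Pdk1 (-3.01), Pdk2 (-2.13), Slc2a13 (-7.33) and Slc16a14 (-7.31). A higher contrast was found for Hk3 (11.38), Pfkfb1 (4.88), Pfkfb3 (2.02), Pfkfb4 (2.93), Pgam2 (4.69), Eno3 (5.91), Ldha (1.55), Pdk4 (3.26), Slc2a4 (10.39), Slc16a1 (1.62) and Slc16a3 (7.16). The contrast of Pkm was -0.34 and that of Gpi1 -0.99, and neither was called. Without BS6 replicate 2 the contrast of Gpi1 was -2.01.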

How the results depend on the processing

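The counts of genes called in SB4 against SB2, BS6 against BS2 and the contrast between them stayed within 1.5 times under all alternatives run. Leaving out each library in turn gave 21 higher and 11 to 14 lower in SB4 against SB2, 14 to 15 higher and 17 to 20 lower in BS6 against BS2, 17 to 19 higher and 21 to 26 lower in the contrast, and 0 calls in both other pairs. In BS6 against SB2, DESeq2 and the fit over 12 libraries each called 4 genes higher and 2 lower where edgeR called 0, and an adjusted p alone gave 1 lower (Tpi1). The cause was not tested. Of the log2 fold changes of named genes, 7 values changed sign, all of 2 genes whose reported value was near 0. Pkm in SB4 against SB2, -0.02 as reported, was 0.0027 with DESeq2, 0.0028 with RLE factors, 0.0306 with SB2 replicate 3 alone and between -0.0465 and 0.0332 with single libraries left out (above 0 without SB2 replicate 1 or SB4 replicate 3). Gpi1 in BS6 against BS2, 0.04 as reported, was -0.33 with the replicate block and between -0.98 (without BS6 replicate 2) and 0.38 with single libraries left out. Another 18 values lost and 6 gained a call. With SB2 replicate 3 alone, whose spread is assumed to be that of the other group, 22 were higher and 12 lower in SB4. Same-numbered libraries did not deviate together (correlations of -0.09 to 0.06), and the replicate block left 21 higher and 13 lower in SB4 against SB2 and 15 and 18 in BS6 against BS2. Shares from raw counts instead of counts per kilobase moved by more than their SD for many isoforms, yet Ldha kept 92.0% in SB2 and 36.1% in SB4, and Eno2 25.9% and 89.0%. Aldoc had 2.61% of raw counts in SB2, 33.7% in SB4 and 35.4% in BS2, against 1.47, 22.1 and 23.4% per kilobase. With 3 libraries per group, 65.7% of genes simulated with a log2 fold change of 1.5 between SB2 and BS6 were recovered, so smaller differences there can be missed.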
